A study of Mus musculus with 101 samples.

Results

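Dsp, Krt8, Krt18, Krt19, S100a10, S100a11, Anxa2, Vamp8, Epcam and Cdh1 are 10 mouse genes of epithelial junctions, keratin filaments, S100-annexin complexes and vesicle fusion. They were chosen by symbol as genes of 1 epithelial theme, and the theme itself was selected on a measured contrast: in male embryos of the F2 generation, Dsp, S100a10 and Vamp8 were lower after ancestral dosing at 0.2 mg/kg-day than after vehicle. All 10 symbols were found, of 15423 genes in the table. The F2 male contrast at 0.2 mg/kg-day is therefore given as a description, with no test.

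The study measured RNA in primordial germ cells of mouse embryos whose ancestor had been dosed with benzo[a]pyrene (BaP), a combustion product that binds the aryl hydrocarbon receptor. Pregnant F0 females took by mouth sesame oil alone (vehicle) or oil with BaP at a low dose of 0.033 mg/kg-day, a middle dose of 0.2 or a high dose of 2. Dosing ran from embryonic day E6.5 to E11.5 for F1 embryos and to E15.5 for the lines that gave F2 and F3 embryos. Cells were sorted at E13.5 from gonads and adjoining mesonephros of OG2 mice and sequenced embryo by embryo. All embryos, vehicle controls included, carried the OG2 transgene, in which a Pou5f1 promoter and distal enhancer drive EGFP. The gate took EGFP-positive cells and left out those without EGFP, so the sort enriches cells in which that promoter is active; markers of other cells were measured as given below. F1 embryos were exposed in the uterus. The paper counts F2 as exposed too, by way of the germ cells inside the developing F1, and F3 as unexposed.

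Desmosomes are junctions that tie the keratin filaments of neighbouring epithelial cells together, and desmoplakin (Dsp) is the protein that links the junction's cadherins to the filaments. Krt8 pairs with Krt18 or Krt19 to build the keratin filaments of simple epithelia, S100a10 joins Anxa2 in a membrane-bound complex, S100a11 is a small calcium-binding protein of the same S100 family, and Vamp8 is a SNARE protein of endosomal and secretory vesicles. Epcam and Cdh1 are adhesion proteins of the epithelial surface that mouse primordial germ cells also carry.

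The 101 embryos came from 56 dams and comprised 48 females and 53 males in 24 groups of generation, sex and dose. In F1 there were 5 vehicle, 2 low-dose, 5 middle-dose and 5 high-dose females, and 5, 2, 6 and 8 males at the same doses. In F2 each sex had 6 vehicle embryos and 3 at each dose. In F3 there were 6, 4, 2 and 4 females and 6, 4, 4 and 3 males. Values are normalized read counts (counts scaled by library size with the TMM method). Whole reads could be recovered for 99 embryos and came to between 5004382 and 87240533 reads per embryo, with a median of 7789673. A value of 1 read was between 0.00959 and 0.238 normalized counts, which sets the precision of low values such as those of Krt19. Embryos shared dams and litters, so they are not fully independent.

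Several libraries stood apart. A set of 11 F1 libraries from 6 dams held at least 21247642 reads each, against 12211582 or fewer in the other libraries. They lay in the vehicle, 0.2 and 2 mg/kg-day groups of both sexes. D1390.5, a middle-dose F3 male, had 18.1 normalized counts of Dsp, against at most 11.5 in the other 52 males. Its Cdh1, at 6.18, was the lowest of all males, and its Epcam, at 207, lay below the highest female, at 212. D3744.1, a low-dose F3 female, had 44.2 of S100a10 and 122 of Anxa2, the highest of the 48 females for both genes. Many results that rest on these libraries are given with and without them. Relations of single gene pairs are not given without the deep libraries. The labelled sex was checked with the Y-linked gene Eif2s3y, which was 0 in all 48 females and between 109 and 380 in the 53 males, with 109 in D1390.5. In a male library this gene shows that male cells were present. It cannot show whether female cells were mixed in, which was not tested.

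Germ cell markers were high throughout. All 12 listed germ cell markers were above 0, their summed level had a median of 4320 normalized counts in males and 4182 in females, and Dppa3 had the most normalized counts, not scaled by gene length (as for the leading gene of each list below), with a mean of 2644 in males and 1856 in females. Markers of other gonadal cells were also present. The Sertoli list (9 of 10 genes analysed here) summed to a median of 543 in males, led by Cst9 with a mean of 413, and to 21.3 in females, where Aard led with 27.7. The mean Sertoli sum in females was 29.1, so there it mostly gives Aard. The list for coelomic and supporting cells (9 of 10 genes) summed to 152 in males and 50.6 in females, led by Gng13 with 129 and 48.7. The mean sums of that list were 146 and 52.5, so it mostly gives Gng13. The mesonephric list (6 of 10) summed to 77.5 and 17.3, led by Spp1. Spp1 averaged 88.3 in males and 13.8 in females, against mean sums of 90.8 and 18.1, so this sum mostly gives that gene.

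The remaining marker lists were lower. Pregranulosa markers (6 of 8, led by Lef1; Foxl2 and Sprr2d were not analysed here) had a median sum of 12.1 in males and 13.8 in females. Endothelial markers (6 of 8, led by Pecam1; Cdh5 and Tie1 were not analysed here) summed to 35.3 and 40.5. Pecam1 averaged 24.9 and 32.1 against mean sums of 35.4 and 41.6, so this sum mostly gives that gene and not endothelial cells in general. Macrophage markers (9 of 10, led by C1qb) summed to 14.6 and 22.9. Stromal markers (10 of 10, led by Dcn) summed to 2.24 and 2.87, fetal Leydig markers (6 of 6) to 5.34 in males, led by Hsd3b1, and 3.62 in females, led by Insl3. Erythroid markers (5 of 7) had medians of 1.18 and 2.82 and reached 4768 in 1 male and 1653 in 1 female, led by Hba-a1 and Hba-a2. No marker analysed was at 0 in every embryo of a sex. In sorted bulk samples, fewer cells of a type and less RNA per cell cannot be told apart.

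**Figure D1:**
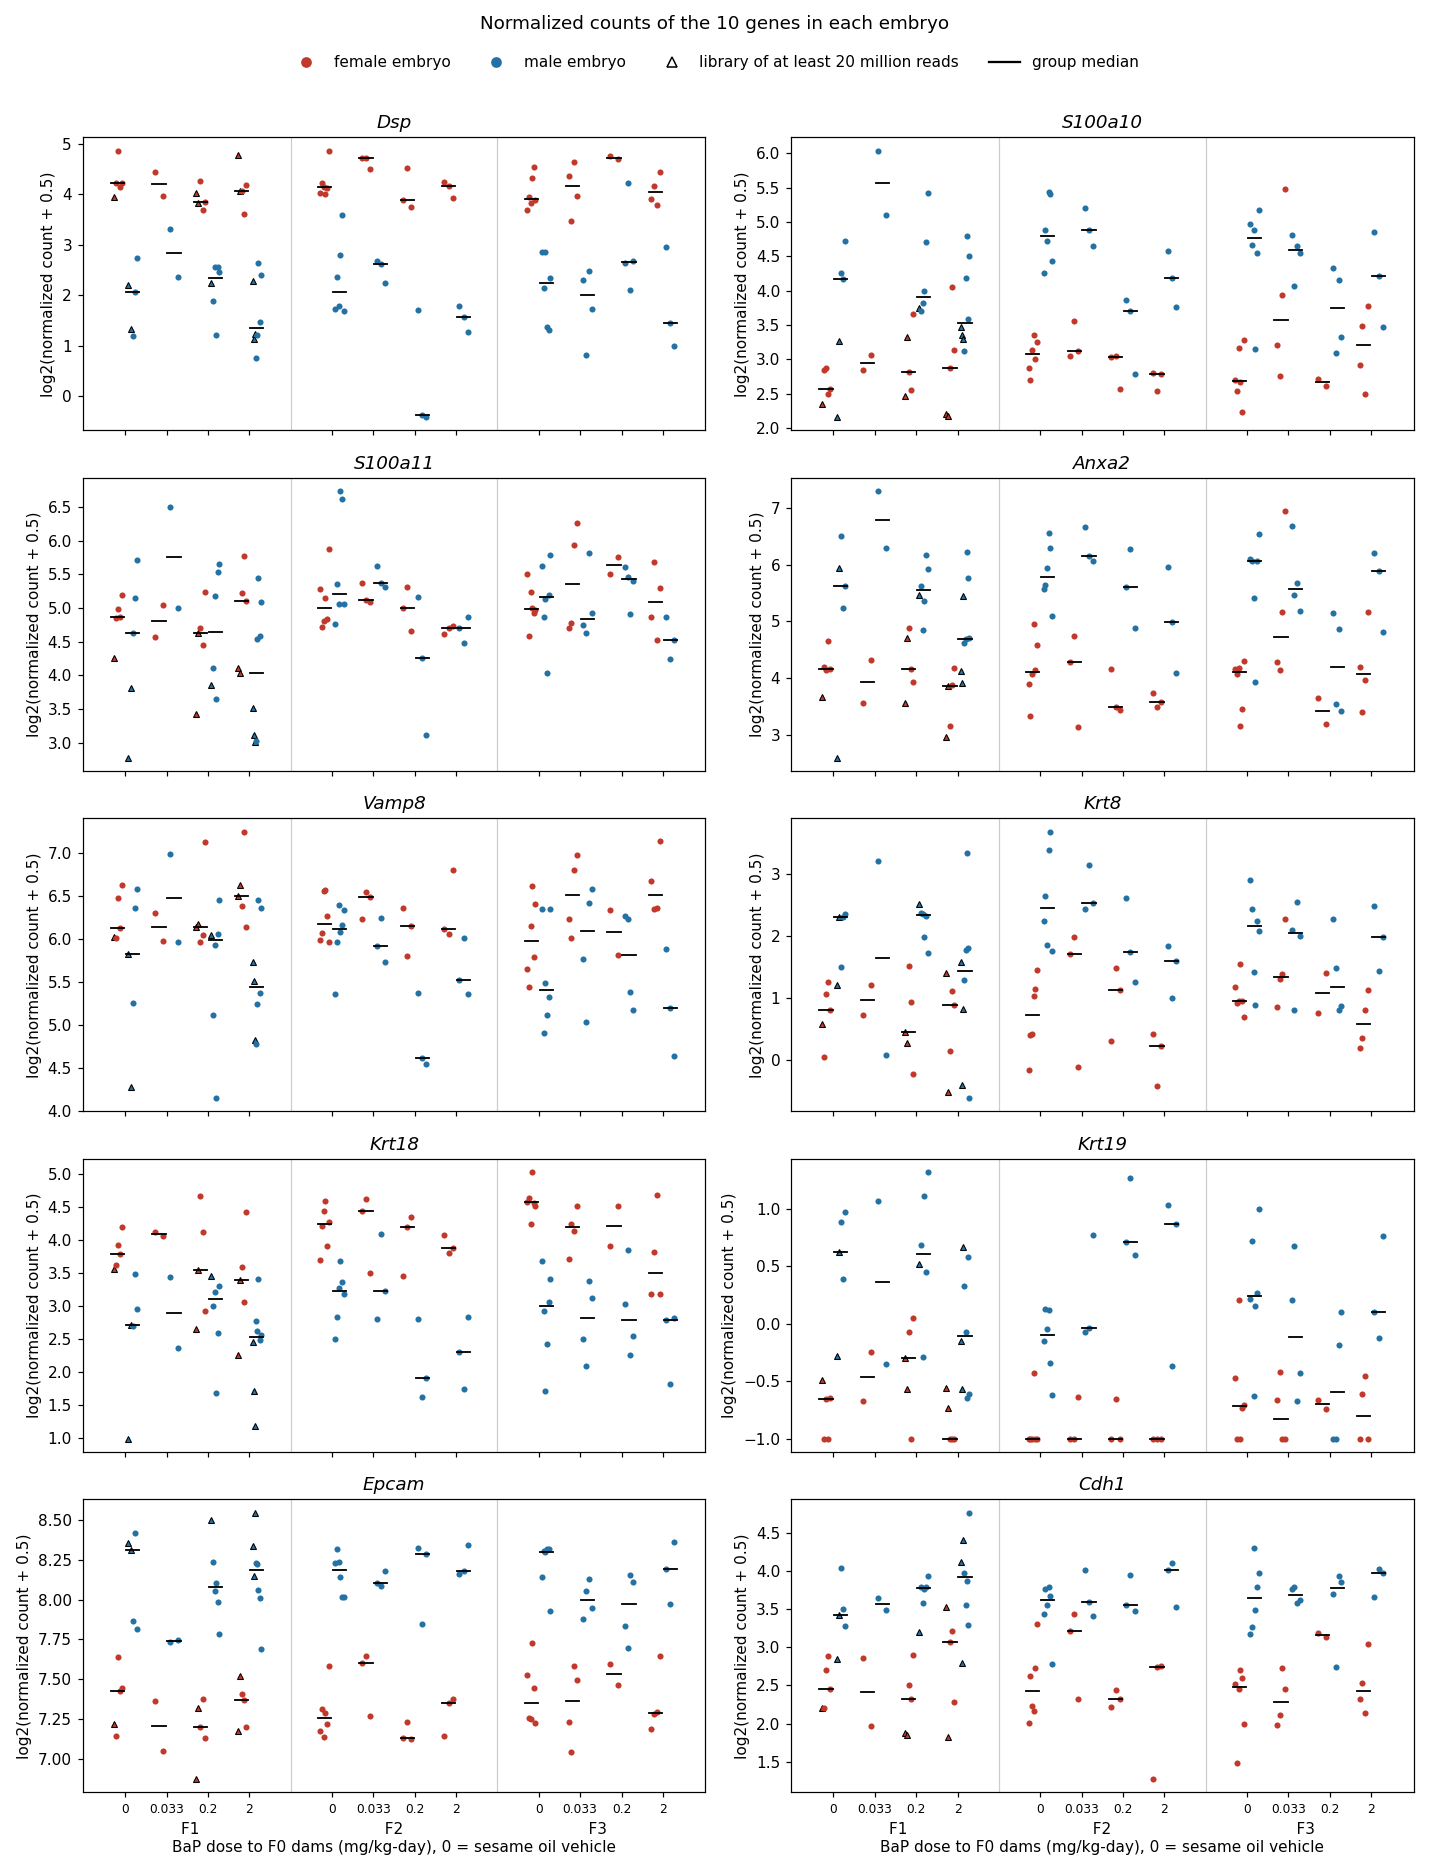
Normalized counts of the 10 genes in each of the 101 embryos, as log2(normalized count + 0.5), by generation and dose. Red points are females, blue points are males, triangles are the 11 deep F1 libraries and bars are group medians; Dsp was higher in females and Epcam in males in each generation.

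The first comparison asked whether the genes differed between the sexes. It used 11 vehicle males and 11 vehicle females of F1 and F3, which the choice of genes did not use, and took the mean of the F1 and F3 differences in a limma fit over 13235 genes. The filter on low values asked for a mean of at least 0.5, and 8 of the 10 genes were called at an adjusted p under 0.05, while 45.4% of all genes tested were called. Krt19 passed the filter through its level in males alone and so had to differ; it and other genes below a mean of 0.5 in either sex are left out of the counts that follow. Of the other 9 genes, 7 were called, beside 42.7% of the 12182 genes past the filter in both sexes. They were 5 genes higher in males (20.1% of those genes) and 2 higher in females (22.5%). The median log2 difference, male minus female, was 0.80 over the 9 genes and −0.01 over those 12182 genes. Only Dsp and Epcam had groups that did not overlap, against 6.32% of all genes, and sex differences were frequent across the table.

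Dsp had the largest log2 difference of the 9 genes that passed the filter in both sexes. In vehicle females of F1 and F3 it ranged from 12.3 to 28.5 normalized counts with a median of 17.1. In vehicle males it ranged from 1.79 to 6.73 with a median of 3.93. Every vehicle female of these generations was above every vehicle male. The log2 difference of Dsp, male minus female, was −2.13 ± 0.21 (SE), with an adjusted p of 1.18e-08. Over all 101 embryos and doses, 51 of 53 males lay below the lowest female, which was at 10.6. The exceptions were F2 vehicle male D3001.1 at 11.5 and D1390.5.

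Dsp is the cytoplasmic end of the desmosome, and 3 of the 4 other genes of the junction that passed the filter in both sexes were called in the same direction. Of 11 desmosome genes in the table, 5 passed the filter in both sexes, 1 was higher in males and 4 in females (20.1% and 22.5% of all such genes), with a median log2 difference of −1.04. Perp, a membrane protein needed for desmosomes, averaged 9.46 ± 2.19 (SD) in vehicle females and 2.08 ± 1.32 in vehicle males (log2 difference −2.09, adjusted p 1.66e-07). The desmosomal cadherin Dsg2 averaged 4.28 in females and 1.95 in males (−1.04, adjusted p 0.000119). The plaque protein Jup averaged 0.120 in females and 1.14 in males, and the linker Evpl 0.368 and 1.52; both passed the filter through males alone and are given as values only.

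The keratins divided between the sexes. Krt18 ranged from 11.3 to 32.2 in vehicle females (median 18.4) and from 1.49 to 12.4 in vehicle males (median 7.11). Its partner Krt8 ranged from 0.540 to 2.45 in females (median 1.44) and from 1.35 to 6.99 in males (median 4.23). Krt18 was higher in females, where 9 of 11 embryos lay above every male, and Krt8 was higher in males, where 7 of 11 lay above every female. The log2 differences were −1.48 ± 0.24 for Krt18 (adjusted p 1.46e-05) and 1.07 ± 0.22 for Krt8 (adjusted p 0.000362).

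Krt19, the other partner of Krt8, was near the floor of detection. It was at 0 in 4 of 11 vehicle females and reached 0.653 in the highest, and it ranged from 0.146 to 1.49 in vehicle males. Of the 11 males, 8 lay above every female. These values stand without a test, and Krt19 fell below the filter when any of 5 males (C4232.2, C4321.1, D2580.2, D1388.1 and D3651.1) was left out. Over all embryos Krt19 was at 0 in 24 of 48 females and in 2 of 53 males.

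Of the 15 keratin genes, 6 passed the filter in both sexes, 4 were higher in males and 1, Krt18, in females (20.1% and 22.5% of all such genes); the median log2 difference was 0.90. Krt222 averaged 37.6 ± 7.68 in males and 5.42 ± 1.89 in females (2.71, adjusted p 8.32e-14). Krt7 averaged 8.35 and 2.12 (1.72, adjusted p 3.13e-05). Krt42 averaged 15.6 in males and 0.0918 in females, and Krt17 10.3 and 0.0223, through males alone; both varied widely among males, with standard deviations of 13.1 and 10.2.

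The S100-annexin partners moved together. S100a10 ranged from 3.96 to 35.6 in vehicle males (median 22.8) and from 4.21 to 9.26 in vehicle females (median 5.88). Anxa2 ranged from 5.59 to 92.6 in males (median 61.0) and from 8.45 to 24.7 in females (median 17.4). For both genes the lowest embryo of all was the deep F1 vehicle male C3774.3. The log2 differences were 1.44 ± 0.25 for S100a10 (adjusted p 5.01e-05) and 1.40 ± 0.34 for Anxa2 (adjusted p 0.00143). Without the deep libraries they were 1.74 and 1.64.

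S100a11 overlapped between the sexes at both ends. It ranged from 6.37 to 54.9 in vehicle males (median 34.7) and from 18.7 to 44.7 in vehicle females (median 30.7). The difference was −0.17, with a 95% confidence interval from −0.70 to 0.36 (adjusted p 0.618), and it was 0.13 without the deep libraries. Among 7 genes caught by the S100 name pattern and past the filter in both sexes, S100pbp included, 1 was higher in males and 3 in females (20.1% and 22.5% of all such genes), with a median of −0.40. S100a16 averaged 15.3 in females and 1.67 in males (−2.96, adjusted p 7.21e-12), and S100a6 18.4 and 5.83 (−1.68, adjusted p 9.07e-07). S100g, which passed through females alone, averaged 1.90 and 0.281. S100pbp, one of those higher in females, encodes a binding partner and not an S100 protein; it averaged 38.2 and 24.2 (−0.70, adjusted p 0.00235).

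Of 9 annexins measured, 8 passed the filter in both sexes, 4 were higher in males and 2 in females (20.1% and 22.5% of all such genes), with a median of 0.37. Anxa5 averaged 41.6 ± 23.7 in males and 3.80 ± 1.39 in females (2.79, adjusted p 2.93e-05), and Anxa11 9.07 and 3.86 (1.12, adjusted p 9.21e-06). Anxa9 averaged 0.614 in males and 2.77 in females (−1.49, adjusted p 1.61e-06), and Anxa6 6.08 and 15.8 (−1.33, adjusted p 3.61e-05).

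Vamp8 lay on the edge of the call. It ranged from 42.7 to 97.7 in vehicle females (median 69.0) and from 18.8 to 95.3 in vehicle males (median 44.3). Most values overlapped, and 5 of 11 males were below every female. The log2 difference was −0.50 (95% confidence interval −0.98 to −0.02, adjusted p 0.0819). Leaving out male C4605.1, D2580.2, D1344.2 or D3651.1 in turn brought it past the threshold, with adjusted p of 0.0458, 0.0307, 0.0466 and 0.0472. So did dam as a random block (adjusted p 0.0471). Of 21 SNARE genes tested 2 were higher in males and 5 in females (20.1% and 22.5% of all genes past the filter in both sexes), with a median of −0.19. Vamp3 averaged 195 in females and 81.7 in males (−1.25, adjusted p 1.63e-07), Stx17 34.5 and 15.1 (−1.17, adjusted p 1.64e-06), and Snap47 62.7 and 113 (0.78, adjusted p 0.000495).

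The adhesion genes were higher in males. Epcam ranged from 224 to 342 in vehicle males (median 316) and from 141 to 212 in vehicle females (median 172), so that the groups did not overlap. Cdh1, which encodes E-cadherin, ranged from 6.69 to 19.2 in males (median 10.7) and from 2.30 to 6.92 in females (median 5.0), and 10 of 11 males were above every female. The log2 differences were 0.80 ± 0.11 for Epcam (adjusted p 1.67e-06) and 1.15 ± 0.18 for Cdh1 (adjusted p 1.16e-05). Over all doses, 51 of 53 males were above every female for Epcam and 37 of 53 for Cdh1.

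Of the 21 cadherin and tight junction genes tested, 5 were higher in males and 6 in females (20.1% and 22.5% of all genes past the filter in both sexes), with a median of 0.01. Cdh3 averaged 4.99 in males and 1.62 in females (1.5, adjusted p 1.59e-06). Cldn6 averaged 0.949 and 5.01 (−1.84, adjusted p 7.97e-08), Cldn7 5.77 and 15.6 (−1.51, adjusted p 8.74e-06), and Cdh2 1.97 and 5.38 (−1.36, adjusted p 0.000119). Of 13 epithelial regulators past the filter in both sexes 2 were higher in males and 2 in females (20.1% and 22.5% of all such genes), with a median of 0.09. Esrp1 averaged 40.1 in males and 19.7 in females (log2 difference 0.99). Rab25 (1.22 and 0.354), Trp63 (1.98 and 0.351) and Ovol1 (0.227 and 1.90) each passed through 1 sex alone. Of 4 mesenchymal regulators tested, Fn1 was higher in males (61.1 and 38.9, 0.62, adjusted p 0.000195), and Vim was not called (17.1 and 15.8, −0.12, adjusted p 0.782), with a sign that turned positive without male C3774.3 (0.10) or D3523.1 (0.07).

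The same fit gave each generation on its own. In F1, 6 of the 9 genes were called, beside 25.7% of all genes past the filter in both sexes (27.9% of all genes tested); 4 were higher in males (11.5%) and 2 in females (14.2%). In F3, 7 were called, beside 26.5% (29.6% of all genes tested); 5 were higher in males (12.6%) and 2 in females (13.9%). Anxa2 was not called in F1 (log2 difference 1.01, 95% confidence interval −0.02 to 2.04), and it was called without the deep vehicle male C3774.3 (1.66, adjusted p 0.00165). S100a10 was called in F1 (1.09, adjusted p 0.0319), and it was not when C4232.9, C4321.1, C4605.1, D1961.1, D2580.1 or D2580.2 was left out, with adjusted p between 0.0530 and 0.108. In F3, Krt8 was not called without D1344.2 (0.77, adjusted p 0.0605).

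The difference between these differences was tested directly. The F3 minus F1 interaction of sex and generation called 0 of the 10 genes and 0% of all genes with limma, 204 genes at an unadjusted p under 0.05, and 0 genes with both edgeR tests. F3 minus F1 within vehicle males called 0 of the 10 (0%; 553 genes at an unadjusted p under 0.05, with 9 calls by the edgeR likelihood ratio test and 0 by the quasi-likelihood test). Within vehicle females it called 0 of the 10 (0%; 352 genes at an unadjusted p under 0.05, with 0 calls by both edgeR tests). The largest of these differences among the 10 were S100a10 in males (0.85) and Krt18 in females (0.77).

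Marker values beside the sex difference were as follows. The sums of the Sertoli, coelomic and supporting, and mesonephric lists had higher medians in males, as given above. The mesonephric genes did not all go that way. Of the 4 tested, 1 was higher in males and 2 in females, while 45.4% of all genes tested were called. Only 1 of the 4, higher in males, passed the filter in both sexes. In the vehicle male C3774.3, the lowest for S100a10 and Anxa2, the Sertoli sum was 72.5, against 334, 587, 626 and 965 in the other F1 vehicle males. Across all 53 males, S100a10 followed the mean log2 level of the Sertoli list with a Pearson r of 0.858 (0.799, 0.955 and 0.957 within F1, F2 and F3; 0.915 without the deep libraries), and Anxa2 with 0.768. Without the F2 vehicle and F2 0.2 mg/kg-day males, which the choice of genes used, these were 0.831 and 0.805 across 44 males. Across females S100a10 followed the coelomic and supporting list with 0.742 and Anxa2 with 0.750, and these were 0.505 and 0.546 without D3744.1 and 0.849 and 0.852 in the 43 females without the deep libraries. Within F1, F2 and F3 females they were 0.113, 0.883 and 0.932 for S100a10 and 0.0669, 0.748 and 0.930 for Anxa2, with 5 deep libraries among the 17 F1 females. Anxa2 in females followed the pregranulosa list with 0.794 (0.645 without D3744.1). These r are descriptions over embryos that share dams, and the part of these cells in the results was not tested.

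Not all 10 genes followed those lists. In females Epcam, Cdh1 and Dsp followed the germ cell list with r of 0.735, 0.723 and 0.603, and the coelomic and supporting list with 0.117, 0.148 and 0.116. In the 44 males that the choice of genes did not use, the same genes gave 0.0221, −0.18 and −0.03 with the germ cell list and −0.24, 0.20 and 0.33 with the Sertoli list. S100a11, Vamp8, Krt8 and Krt18 in these males gave 0.540, 0.557, 0.469 and 0.423 with the Sertoli list, and Krt19 gave 0.176.

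**Figure D2:**
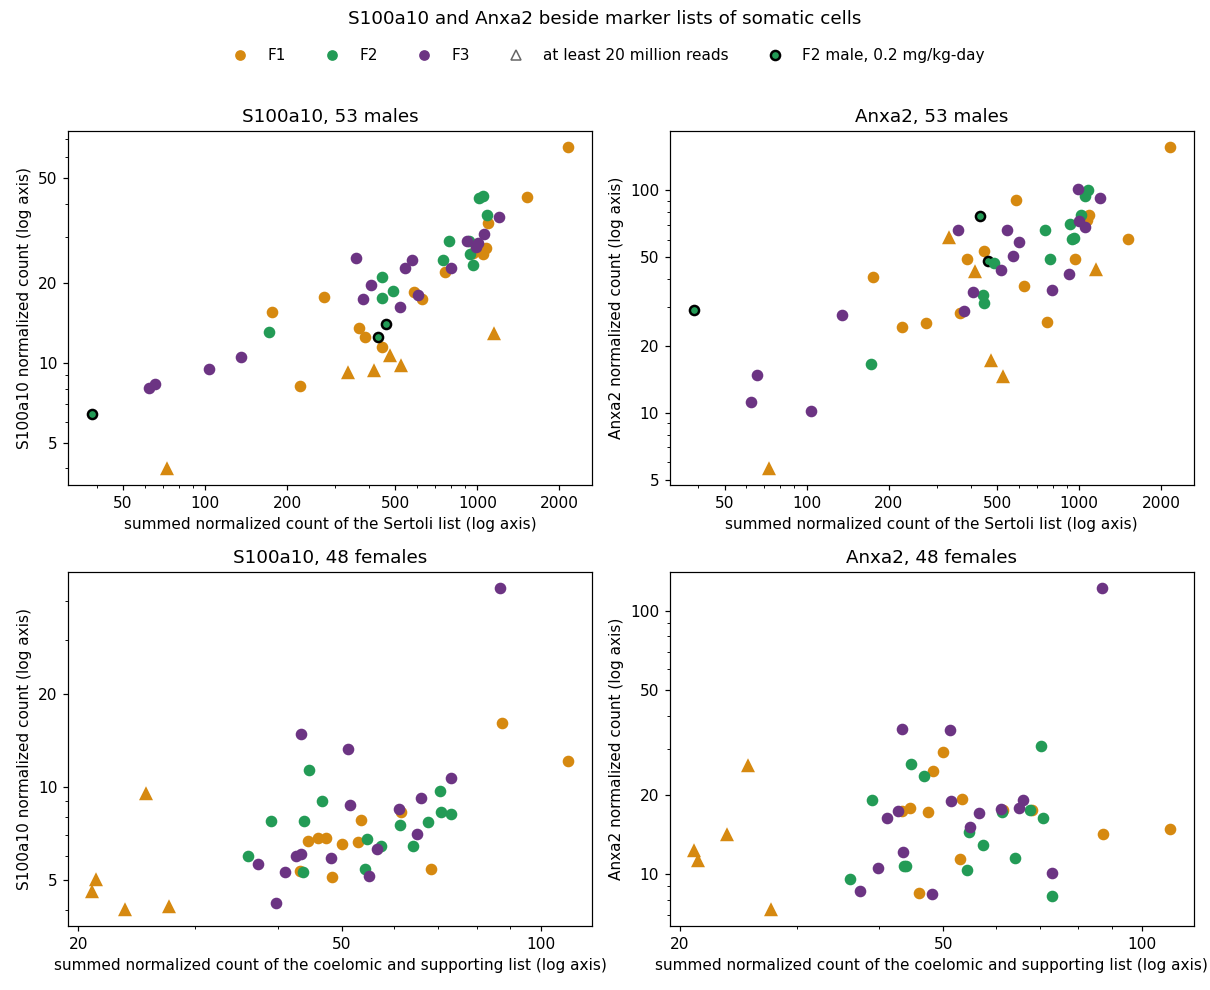
S100a10 and Anxa2 against the summed level of a marker list in each embryo, both axes logarithmic and in normalized counts: the Sertoli list in 53 males and the coelomic and supporting list in 48 females. The mean coelomic and supporting sum was mostly Gng13. In males both genes rise with the Sertoli sum, with r of 0.858 and 0.768 on mean log2 levels of the list.

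Levels of the 10 genes were compared with each other per kilobase of exon. In males the mean level fell in the order Epcam (128 normalized counts per kb), S100a11 (65.5), Vamp8 (24.1), S100a10 (17.5), Anxa2 (13.8), Krt18 (4.77), Cdh1 (2.77), Krt8 (1.99), Dsp (0.434) and Krt19 (0.404). Dsp and Krt19 were not separated, since Dsp exceeded Krt19 in 29 of 53 males, while S100a10 exceeded Anxa2 in 42. In females the order was Epcam (73.5), S100a11 (65.0), Vamp8 (35.1), Krt18 (11.4), S100a10 (6.81), Anxa2 (5.04), Dsp (1.87), Cdh1 (1.2), Krt8 (0.733) and Krt19 (0.0597). Epcam exceeded S100a11 in 35 of 48 females and in 50 of 53 males. On this scale the mean of Krt18 was above that of its partner Krt8 in both sexes.

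The 10 genes lie on 8 chromosomes of the GRCm38 (mm10) build in the GENCODE annotation. Krt8 (chromosome 15, 101996698 to 102004482, minus strand) and Krt18 (chromosome 15, 102028180 to 102032027, plus strand) are neighbours that are transcribed away from each other, 23697 bases apart with 0 annotated genes between them. S100a11 (chromosome 3, 93520488 to 93526287) and S100a10 (93555080 to 93564643) both lie on the plus strand, 28792 bases apart. Dsp spans 38151294 to 38198577 of chromosome 13, Anxa2 69453620 to 69491795 of chromosome 9, Krt19 100140810 to 100148665 of chromosome 11, Epcam 87635979 to 87651129 of chromosome 17 and Cdh1 106603351 to 106670246 of chromosome 8. Vamp8 spans 72385223 to 72390703 of chromosome 6. Krt8 and Krt18 thus share a locus and had sex differences of opposite sign, while S100a10 and S100a11 share a locus and only S100a10 was called.

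Promoters are shown for Dsp and Epcam, the genes whose values in the vehicle males and females did not overlap. Each line gives the 150 bases before the gene's start in the RefSeq promoter table of build GRCm38.p6, read 5′ to 3′ on the gene's strand; 7 of the 10 genes matched an entry. For Dsp and Epcam the window also ends before the GENCODE start, while those of Krt8, Anxa2, Vamp8, Krt18 and S100a11 reach 140, 63, 36, 36 and 8 bases into the gene as GENCODE annotates it and are not printed. Capitals mark a GC box, spelled GGGCGG, wherever a search of both strands found it. A TATA box, spelled TATAAA, the motif that AP-1 proteins bind, spelled TGANTCA, and the CCAAT box, which is named after its letters, were searched for in the same way. The Dsp window is chr13:38151144-38151293 and the Epcam window chr17:87635829-87635978, both on the plus strand.
Dsp: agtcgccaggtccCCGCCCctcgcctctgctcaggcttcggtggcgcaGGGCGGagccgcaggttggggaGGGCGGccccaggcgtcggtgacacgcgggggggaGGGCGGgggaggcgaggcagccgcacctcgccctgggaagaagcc
Epcam: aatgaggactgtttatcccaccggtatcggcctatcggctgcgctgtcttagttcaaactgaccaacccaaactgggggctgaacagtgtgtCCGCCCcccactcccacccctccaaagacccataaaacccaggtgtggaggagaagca

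The Dsp window held 4 GC boxes and the Epcam window 1, and neither held the TATA box, the AP-1 motif or the CCAAT box. In the windows that reach into the gene, S100a11 had 3 GC boxes and 2 AP-1 motifs, Anxa2 had 2 GC boxes, a TATA box and an AP-1 motif, and Krt8, Krt18 and Vamp8 had none of these. Of 32851 promoter windows of this length, 28.6% held a GC box, 7.57% the TATA box, 24.5% the CCAAT box and 4.24% the AP-1 motif. The core of the element that the BaP receptor binds, GCGTG, was in 20.5% of windows. Among the 7 genes it was in those of Dsp, once, and of Krt18, where it occurred 2 times. The E-box CANNTG was in 47.7% of windows and, among the 7, in those of Krt8 and Epcam. Motifs were counted separately and may overlap each other, and a match is a description of letters only.

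The contrast that chose the genes compared 3 F2 males at 0.2 mg/kg-day (D1040.1, D1064.1 and D3371.2, in this order below) with 6 F2 vehicle males. Dsp was at 2.77, 0.273 and 0.252 normalized counts in the exposed males and between 2.73 and 11.5 in the vehicle males (median 3.79). S100a10 was at 14.1, 12.5 and 6.43 against 18.7 to 42.8 (median 27.4), and Vamp8 at 40.9, 24 and 22.8 against 40.5 to 83.4 (median 68.8). D1064.1 and D3371.2 were below the vehicle range for all of these genes, and D1040.1 for S100a10 only. The log2 differences, exposed minus vehicle, were −2.02, −1.40 and −1.20.

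S100a11, which stood at 35.5, 18.7 and 8.20 against 26.5 to 106 (median 36.7), was lower by a log2 difference of −1.42. Anxa2, at 48.2, 76.7 and 29.1 against 33.8 to 94.1 (median 55.0), overlapped the vehicle males and differed by −0.26. Krt18 was at 6.54, 2.59 and 3.28 against 5.21 to 12.3 (−1.02), and Krt8 at 5.66, 2.86 and 1.89 against 2.88 to 12.4 (−0.72). Epcam (321, 229 and 313 against 258 to 319) and Cdh1 (11.2, 15 and 10.6 against 6.36 to 13.3) differed by −0.01 and 0.16. Krt19 was at 1.13, 1.91 and 1.01, above the vehicle range of 0.151 to 0.592, and its mean over F2 was too low for the fit. The genes named by the choice thus did not stand for all 10 in these males.

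Marker sums lay beside that contrast. The Sertoli list summed to 463, 433 and 38.5 in the exposed males and to between 445 and 1052 in the vehicle males, and the germ cell list to 4320, 5721 and 4221 against 2794 to 4718. The mesonephric list summed to 77.5, 46.5 and 17.2 against 76.9 to 185, the macrophage list to 10.1, 5.86 and 0.883 against 8.10 to 42.7, and the fetal Leydig list to 3.40, 2.73 and 1.39 against 3.28 to 21.7. Over all males the mean mesonephric sum was mostly Spp1, and the mean coelomic and supporting sum mostly Gng13, as given above. The coelomic and supporting list, at 159, 175 and 152 against 90.3 to 211, lay inside the vehicle range. D3371.2 had the lowest Sertoli sum of all 53 males and the lowest S100a10, S100a11, Vamp8 and Dsp of its group. The part of these cells in the contrast was not tested.

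F2 males at the other doses share the same 6 vehicle males, and their values are given without a test. At 0.033 mg/kg-day Dsp was at 5.86, 5.67 and 4.23, S100a10 at 36.4, 28.9 and 24.6, and Vamp8 at 59.6, 75.2 and 52.7, all inside the vehicle range. The log2 differences there lay between −0.17 (S100a11) and 0.45 (Anxa2). At 2 mg/kg-day Dsp was at 2.93, 2.46 and 1.92, S100a10 at 23.5, 17.7 and 13.1, and Vamp8 at 45.3, 63.6 and 40.3, so that the lower values lay under the vehicle range. The log2 differences at 2 mg/kg-day were −0.78, −0.68 and −0.42 for these genes, −1.12 for Krt8, −0.92 for S100a11, −0.84 for Krt18, −0.83 for Anxa2, 0.07 for Epcam and 0.38 for Cdh1. In the same embryos (D1669.1, D3620.6 and D4028.3) the Sertoli sums were 960, 446 and 172 against 445 to 1052 in vehicle. The mesonephric sums, mostly Spp1 in males as given above, were 105, 71.0 and 43.7 against 76.9 to 185. The macrophage sums were 10.7, 7.12 and 6.02 against 8.10 to 42.7 and the fetal Leydig sums 5.71, 4.79 and 2.29 against 3.28 to 21.7. The part of these cells was not tested.

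The next comparisons asked whether exposure changed the genes in embryos that the choice did not use: each dose against vehicle within F1 males, F1 females, F2 females, F3 males and F3 females, 15 comparisons and 141 tests of the genes. Krt19 was below the filter in F2 and F3. With limma 0 of the 141 tests were called, 9 were at an unadjusted p under 0.05, and the lowest adjusted p was 0.233; 0 were called with either edgeR test. Over all genes limma called 1 of 199893 tests, or 0.0005%, with 10254 at an unadjusted p under 0.05, and the edgeR likelihood ratio and quasi-likelihood tests called 124 and 8. By comparison 0% of genes were called in 14 of the 15, and 0.00733% in F1 females at 2 mg/kg-day. The exposed embryos were higher in 67 of the 141 tests and lower in 74.

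At the dose and sex of the choosing contrast, F1 males at 0.2 mg/kg-day did not repeat its values. Their Dsp ranged from 1.81 to 5.40 (median 4.59) against 1.79, 2.01, 3.68, 4.09 and 6.12 in F1 vehicle males. Their S100a10 ranged from 12.6 to 42.3 (median 14.5) against 3.96, 9.16, 17.5, 18.6 and 25.9, and their Vamp8 from 17.2 to 86.5 (median 62.9) against 18.8, 37.4, 56.1, 81.5 and 95.3. The groups overlapped for each gene. The limma log2 differences were 0.25 for Dsp (95% confidence interval −0.39 to 0.88), 0.52 for S100a10 (−0.26 to 1.29) and −0.03 for Vamp8 (−0.77 to 0.70), none of them called.

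F3 males at 0.2 mg/kg-day (D1390.1, D1390.5, D1464.2 and D4021.2) had Dsp at 5.72, 18.1, 3.78 and 5.91, S100a10 at 19.7, 8.05, 17.4 and 9.53, and Vamp8 at 76.4, 74.3, 41.2 and 35.5. In the 6 F3 vehicle males these genes ranged from 1.97 to 6.73, from 8.36 to 35.6 and from 29.4 to 81.0. Dsp was thus not lower in F3, S100a10 was below the vehicle median of 26.9 in all 4 males, and Vamp8 lay inside the vehicle range in all 4. Anxa2 was at 35.2, 11.2, 28.6 and 10.2 against 14.7 to 92.6 (median 66.2).

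The limma log2 differences in F3 males at 0.2 mg/kg-day were −1.44 for Anxa2 (adjusted p 0.233), −0.83 for S100a10 (adjusted p 0.452), 0.76 for Dsp (adjusted p 0.478) and 0.18 for Vamp8 (adjusted p 0.892). Without D1390.5 they were −1.20, −0.62, 0.33 and 0.02. Without the vehicle male D3523.1, Anxa2 came close to the threshold (−1.79, adjusted p 0.0507). The Sertoli sums of these males were 408, 62.2, 379 and 104, against 65.7 to 1196 (median 731) in F3 vehicle males. Their coelomic and supporting sums (mostly Gng13 in males, as given above) were 95.1, 47.1, 161 and 69.7 against 114 to 213, below the vehicle range in all but D1464.2. Across F3 males S100a10 and Anxa2 followed the mean log2 level of that list with r of 0.961 and 0.897. The part of these cells in the values was not tested. The fit that averaged F1 and F3 males at 0.2 mg/kg-day called 0 of 9 genes with limma and 0% of all genes (468 at an unadjusted p under 0.05; 1 gene with the edgeR likelihood ratio test and 0 with the quasi-likelihood test). In it Dsp was 0.50 higher than vehicle (95% confidence interval 0.00 to 1.01, adjusted p 1.0), and 0.29 higher without D1390.5. S100a10 and Vamp8 differed by −0.16 (−0.73 to 0.41) and 0.07 (−0.44 to 0.58).

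The F1 males at 0.033 mg/kg-day, D2595.1 and D2645.2, were high for the S100-annexin pair. S100a10 was at 65.3 and 33.8, above all 5 vehicle males, whose highest was 25.9, and Anxa2 at 156 and 77.5 against 5.59, 37.0, 49.1, 61.0 and 90.2. The log2 differences were 1.86 for S100a10 (adjusted p 0.703), 1.61 for Anxa2 (adjusted p 0.727) and 0.94 for Dsp (adjusted p 0.769), none of them called in limma. Without the deep libraries they were 1.19, 1.0 and 0.84. Without D2595.1 they were 1.38, 1.10 and 0.47, without D2645.2 2.33, 2.11 and 1.41, and without the vehicle male C3774.3 1.47, 0.962 and 1.01, so that they depend on single embryos. The Sertoli sums were 2152 and 1092, above those of the vehicle males, and D2595.1 had the highest of all males. The coelomic and supporting sums, mostly Gng13 in males as given above, were 223 and 237 against 47.3 to 206 in F1 vehicle males. The macrophage sums were 91.5 and 20.4 against 2.79 to 20.2. The pregranulosa sums, 7.67 and 8.34, lay below the vehicle range of 12.2 to 27.4. The part of these cells was not tested.

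In F3 females at 0.033 mg/kg-day (D2374.5, D2549.1, D3501.3 and D3744.1) S100a10 was at 8.73, 6.29, 14.9 and 44.2 against 4.21 to 9.26 in 6 vehicle females, and Anxa2 at 19.0, 17.1, 35.5 and 122 against 8.45 to 19.2. The last library set both means. The log2 differences of 1.08 and 1.24 (both with an adjusted p of 0.99 in limma) became 0.54 and 0.64 without D3744.1. In that library the stromal sum was 71.3 against 1.72, 3.70 and 9.24 in the other embryos of its group, the coelomic and supporting sum 86.8 against 51.4, 56.6 and 43.3, and the pregranulosa sum 44.3, the highest of all females. Over all females the mean coelomic and supporting sum was mostly Gng13, as given above. The macrophage sum was at 78.2, 32.1, 56.8 and 61.9 in the order above against 0.801 to 33.9 in the vehicle females, above their range in all but D2549.1, and across F3 females S100a10 and Anxa2 followed that list with r of 0.582 and 0.560. The part of these cells was not tested.

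A few other tests were at an unadjusted p under 0.05. In F3 females at 0.2 mg/kg-day, D1464.1 and D4021.1, Cdh1 was at 8.58 and 8.28, above the vehicle range of 2.30 to 6.0 (log2 difference 0.87, adjusted p 0.342 in limma). The 12 germ cell markers had a median log2 difference of 0.53 there, beside 0.01 over all genes, while their sums were 3898 and 3152 against 3411 to 4209 in vehicle. The sums of the endothelial list, mostly Pecam1 as given above, were 57.2 and 93.1 against 31.0 to 59.6. The part of any cell type was not tested. In F3 females at 2 mg/kg-day Krt18 was at 8.65, 13.7, 25.2 and 8.60 against 18.4 to 32.2, with only D4190.2 inside the vehicle range (−0.87, adjusted p 0.248 in limma; −1.19 and 0.0846 without D4190.2). Neither was called.

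Pooled over doses the genes stayed near vehicle. All doses against vehicle in females of 3 generations called 0 of 9 genes and 0% of all genes with limma (646 at an unadjusted p under 0.05; 1 gene with each edgeR test), and the differences lay between −0.29 (Krt18) and 0.22 (S100a10). All doses in F1 and F3 males called 0 of 9 genes and 0% of all genes with limma (123 at an unadjusted p under 0.05; 0 genes with both edgeR tests), with differences between −0.26 (Krt8) and 0.20 (S100a10). The 95% confidence interval of Dsp was −0.31 to 0.39 in females and −0.25 to 0.59 in these males. No gene of the desmosome, keratin, S100, annexin, SNARE, cadherin and tight junction, epithelial and mesenchymal lists, and none of the 10 marker lists, was called with limma in the 18 exposure comparisons tested, which leave out F2 males.

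**Figure D3:**
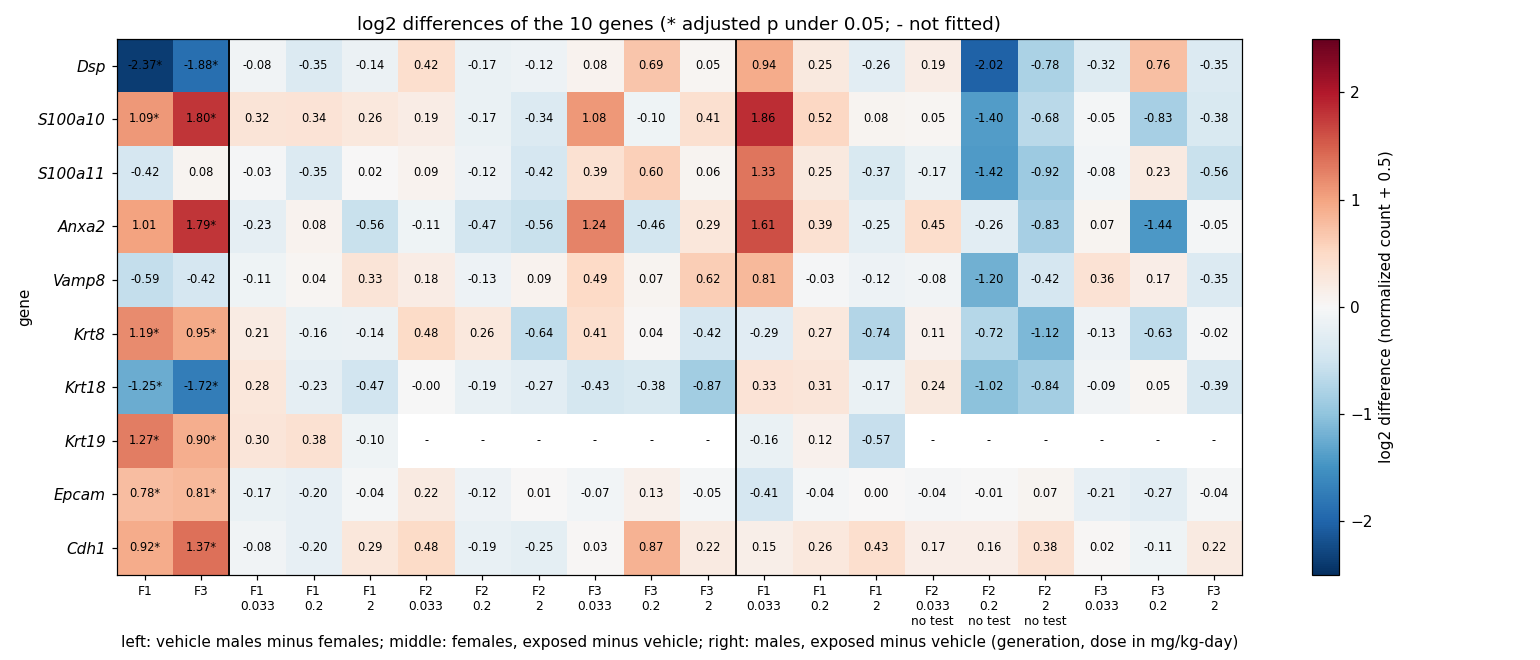
Log2 differences of the 10 genes in each comparison: male minus female in vehicle embryos of F1 and F3 (left), exposed minus vehicle in females (middle) and in males (right). An asterisk marks an adjusted p under 0.05, found in the sex comparisons only, where Krt19 passed the filter through males alone; a dash marks a gene below the filter, and F2 males carry no test.

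The last question was which of the genes vary together within a sex. All 45 pairs were correlated across 48 females and across 44 males (F2 vehicle and F2 0.2 mg/kg-day males, which the choice used, were left out), with p from 100000 permutations adjusted over the 90 relations. Of the 90, 37 were called, 31 of them positive, and 31 were called by Spearman's rho. Females gave 16 called pairs of 45 (14 positive) and males 21 of 45 (17 positive), and 10 pairs were called in both. Such relations were common across the table: an r at least as far from 0 as that of the weakest called pair was found in 32.6% of all gene pairs in females and in 20.2% in males. The share of called pairs in females was thus near that of any genes. Within generations fewer embryos were left, and 15, 7 and 7 of 90 were called in F1, F2 and F3. Values within F1, F2 and F3 below rest on 17, 15 and 16 females and on 21, 6 and 17 males, so that those of F2 males are the least firm. Single pairs are not given without the deep F1 libraries. In F1 females S100a11 was between 10.2 and 24.2 in the deep libraries and between 21.3 and 54.2 in the others. The part of depth in the relations was not tested.

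S100a10 and Anxa2, whose proteins form a complex, gave r of 0.805 and rho of 0.778 in males (permutation p 1e-05, the smallest these permutations can give, adjusted 0.00018), with 0.754, 0.981 and 0.899 within F1, F2 and F3, and r of 0.730 without the 2 embryos farthest from the median. In females r was 0.70 and rho 0.519 (permutation p 1e-05, adjusted 0.00018), with 0.237, 0.751 and 0.883 within generations, 0.553 without the 2 farthest embryos, and 0.499 without D3744.1. The relation in F1 females was thus weak. S100a10 and S100a11, neighbours on chromosome 3, gave 0.763 in males (rho 0.707; within generations 0.895, 0.759 and 0.364; 0.684 without the 2 farthest) and 0.676 in females (rho 0.624; 0.737, 0.597 and 0.671; 0.588), each with a permutation p of 1e-05, adjusted 0.00018.

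The keratin partners Krt8 and Krt18 gave r of 0.631 and rho of 0.732 in males (permutation p 2e-05, adjusted 0.0002; 0.586, 0.920 and 0.615 within generations; 0.665 without the 2 farthest embryos). In females they gave 0.47 and 0.553 (permutation p 0.00097, adjusted 0.00416; 0.276, 0.730 and 0.481; 0.430). They thus varied together within each sex while differing in opposite directions between the sexes. Dsp and Vamp8 were related in males (r 0.699, rho 0.687, permutation p 1e-05, adjusted 0.00018; 0.864, 0.674 and 0.573 within generations; 0.709 without the 2 farthest). Epcam and Cdh1 were related in females (r 0.551, rho 0.561, permutation p 9e-05, adjusted 0.000736; 0.238, 0.852 and 0.714; 0.540).

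Of the 10 pairs called in both sexes, 3 had opposite signs, and the difference between the sexes was not tested. S100a11 and Epcam gave 0.477 in females (rho 0.408, permutation p 0.00073, adjusted 0.00346; within generations 0.334, 0.544 and 0.507; 0.361 without the 2 farthest) and −0.56 in males (rho −0.56, permutation p 0.0001, adjusted 0.00075; −0.71, −0.47 and −0.33; −0.48). Dsp and Epcam gave 0.498 in females (rho 0.424, permutation p 0.00036, adjusted 0.00202; 0.211, 0.761 and 0.636; 0.426) and −0.44 in males (rho −0.42, permutation p 0.00299, adjusted 0.0103; −0.44, −0.84 and −0.45), where it was −0.35 and no longer called without the 2 farthest embryos. Vamp8 and Krt18 gave −0.36 in females (rho −0.29, permutation p 0.0125, adjusted 0.0314; −0.46, 0.0596 and −0.44), no longer called without the 2 farthest (−0.25), and 0.513 in males (rho 0.558, permutation p 0.00039, adjusted 0.00206; 0.501, 0.352 and 0.630; 0.505). The negative relations of Dsp with Epcam and of Vamp8 with Krt18 thus depend in part on 2 embryos each.

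The genes most like the mean of the 10 (each standardised within sex) were found among all genes above the filter. Across 53 males they were Tinagl1 (Pearson r 0.896), Klhl23 (0.886), Gstm7 (0.883), Spp1 (0.882) and Bex2 (0.880), of 13084 genes. Across 48 females Folr1 (0.799), Apoe (0.783) and Zfp459 (0.777) were among the closest, of 13042 genes. Without the F2 vehicle and F2 0.2 mg/kg-day males the male values were 0.886, 0.871, 0.865, 0.869 and 0.867. Without the deep libraries they were 0.901, 0.882, 0.900, 0.874 and 0.879, and without D3744.1 these female values were 0.783, 0.768 and 0.763.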

How the data were processed

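RNA of sorted primordial germ cells was measured in 101 embryos. The values are the deposited signal: the authors trimmed reads with Trim Galore, aligned them with STAR to mm10, counted reads over exons and normalized the counts by TMM in edgeR, one column per embryo, with tool versions not stated. Reads were recovered in 99 embryos, by dividing the values by the value of 1 read (100% of values above 0 within 0.05 of a whole read), and other embryos had no recovered total.

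Tests used limma 3.58.1 with trend in R 4.3.3 on log2(normalized count + 0.5), over genes with a mean of at least 0.5 in the embryos of the fit. Each comparison was adjusted over all its genes by Benjamini-Hochberg and called under 0.05. The spread was estimated over all groups of a fit: 8 groups for doses within a generation, so that groups of 2 embryos are assumed to vary like the others. edgeR 4.0.16 gave likelihood ratio and quasi-likelihood tests on recovered reads. Correlations used two-sided permutation tests with 100000 resamples. Python 3.11.15, numpy 2.4.6, pandas 2.3.3, scipy 1.17.1 and matplotlib 3.10.9 did the rest. The fit was tested on simulated data.

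The members and lists were chosen with earlier results of these data known. All 10 members are named. From each pathway list up to 4 other genes called in the sex comparison with the smallest p are named, or the 2 most abundant where fewer than 2 were called. From each marker list the most abundant gene and markers at 0 are named, and the 5 genes of most similar pattern in each sex. Alternatives changed the pseudocount, filter, tool, scaling, embryos fitted, litter handling and deep libraries, and left out each embryo in turn.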

Additional observations from a re-analysis of the deposited data

Results flagged for a closer look

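Of 140 tests of a gene in a group of 4 to 8 embryos for a sample far from the others, 5 stood out, and chance gives about 1 in 20. Dsp was at 28.2 normalized counts in F2 vehicle female D3133.2, against 15.5 to 18.2 in the other 5. S100a10 was at 8.36 in F3 vehicle male D3523.1, against 22.8 to 35.6; that male also had a Sertoli sum of 65.7, and its part was not tested. Vamp8 was at 138 in F1 female D2510.2 at 0.2 mg/kg-day, against 62.0 to 71.3. Krt19 was at 0.241 in F2 vehicle female D2996.1 and at 0 in the others of its group, which is a difference of a few reads. Cdh1 was at 6.36 in F2 vehicle male D3133.5, against 10.3 to 13.3. With F2 males left out, no gene had every exposed embryo above the highest vehicle embryo in one sex or generation and every one below the lowest in another at the same dose, over 180 pairs of comparisons that shared a generation or a sex.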

How the results depend on the processing

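Counting Krt19, the number of the 10 genes called between the sexes was 6 to 9 over 12 alternatives and 7 to 9 over 22 left-out embryos, against 8. It was 6 with a mean of at least 5, where Krt8 and Krt19 were below the filter, and 9 with dam as a random block, where Vamp8 had an adjusted p of 0.0471. With dam as a fixed block over 9 litters (18 embryos) it was 8. The log2 differences of the 7 called genes other than Krt19 kept their sign and their call wherever they were fitted, with Dsp between −2.26 and −1.99, S100a10 between 1.32 and 1.79 and Anxa2 between 1.24 and 1.90. Averaging littermates and leaving out D1390.5 could not apply to this comparison, which holds no such embryos.

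S100a11 had a sign that depended on the embryos: 0.13 without the deep libraries, 0.0482 with all 17 male and 17 female vehicle embryos, 0.16 with dam as a fixed block and 0.0338 without C3774.3, over a range of −0.33 to 0.0338 when embryos were left out in turn. Vim turned positive with both edgeR tests (0.0181 and 0.0167), without the deep libraries (0.19), with all 17 male and 17 female vehicle embryos (0.13), with dam as a fixed block (0.32), and without C3774.3 (0.10) or D3523.1 (0.07), over a range of −0.26 to 0.10. Neither was called in any of these, and the cause was not tested. Vamp8 was called in 6 of 34 alternatives, 1 of which added the F2 vehicle males that the choice of genes had used, with a log2 difference between −0.62 and −0.33 throughout.

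The 4 exposure results (each dose in turn, 0.2 mg/kg-day in F1 and F3 males, and all doses in females or in F1 and F3 males) gave 0 called members in every alternative run, and 0 to 0 over 86, 21, 48 and 38 left-out embryos. The lowest adjusted p of a member in a dose comparison ranged from 0.128 to 0.858 over the alternatives. Leaving out 1 embryo brought it lower, to 0.0507 for Anxa2 in F3 males at 0.2 mg/kg-day without vehicle male D3523.1 and 0.0846 for Krt18 in F3 females at 2 mg/kg-day without D4190.2. The numbers of genes called did move: 91 in F3 males at 0.2 mg/kg-day and 22 in F3 females at 0.033 mg/kg-day with the edgeR likelihood ratio test, where limma called 0, and 0 to 8 in F1 females at 2 mg/kg-day, where limma called 1. A mean of at least 5 left 3727 genes called between the sexes, against 6010, with fewer genes tested.

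Called correlations numbered 37 of 90. They were 15 within F1, 7 within F2 and 7 within F3, where fewer embryos were left, and 30 to 42 under the other alternatives, among them 34 without D3744.1 and D1390.5, an alternative chosen after seeing the data. Depth limits what can be said of Krt19, Jup and other genes at a few reads. Over 2 to 8 embryos in a group, an exposure effect smaller than the intervals given was not detectable.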
